A study of Saccharomyces cerevisiae W303 with 4 samples.

Results

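The ribosomal DNA (rDNA) of the yeast reference genome lies on chromosome XII, and its rRNA genes were compared here with the chromosomal binding sites of Zuo1. The genes are the 35S genes RDN37-1 and RDN37-2 and the 5S genes RDN5-1 to RDN5-6, 8 of the 6477 annotated genes of the reference, all between positions 450000 and 492000. They were chosen by their place in this region and by the deposited Zuo1 peaks that cover it, with fold enrichments known, so their peak values are given as a description and not tested. Zuo1 is a J-protein chaperone that works at the ribosome and is also found in the nucleus. Chromatin immunoprecipitation and sequencing (ChIP-seq) was done in S. cerevisiae of the W303 strain, with Zuo1 Myc-tagged at its C-terminus, in asynchronous cultures. The experiment has 2 Myc IP libraries and 2 input libraries, the latter of sheared chromatin that was not precipitated. All 4 libraries come from tagged cells, and a strain without the tag was not analysed here.

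The peaks were called once on the pooled libraries, so the peak list does not separate the replicates. Only this list was analysed here, and neither a spread between cultures nor a test is given. Each of the 1594 peaks has a position, a summit and a fold enrichment, which MACS computes as IP over background at that summit. The number of IP fragments and the background behind each fold were solved from the fold and its Poisson p-value. The median peak had 91 IP fragments over a background of 36.5 and a fold of 2.44. Intervals below are exact 95% Poisson intervals of the IP fragments and cover counting error only. They take no account of the possible upper limit on these fragments that is described below. Coordinates are 1-based positions in R64 (sacCer3), which is the genome of strain S288C. Whether the W303 cells carry the same arrangement of these repeats was not examined.

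The 35S gene is transcribed by RNA polymerase I into a precursor that is cut into the 18S, 5.8S and 25S rRNAs, and its transcribed spacers (ETS and ITS) are removed. The 5S gene is transcribed by RNA polymerase III from a promoter inside the gene, which TFIIIA recognises. In yeast, both genes sit in the same tandemly repeated unit. The non-transcribed spacer NTS2 separates the start of the 35S gene from the 5S gene and holds a replication origin. NTS1, on the other side of the 5S gene, holds the replication fork barrier bound by Fob1. The living cell carries a long array of such units, of which the reference shows only a few.

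In the reference the unit is 9137 bp long, and 2 copies stand side by side. RDN37-1 (chrXII:451575-458432) and RDN37-2 (chrXII:460712-467569) are on the minus strand and 6858 bp long. RDN5-1 (chrXII:459676-459796) and RDN5-2 (chrXII:468813-468931) are on the plus strand, each upstream of the 35S start across NTS2. To the right of RDN5-2 the array gives way to 4 further copies of the 5S gene. These are RDN5-3 (chrXII:472465-472583), RDN5-4 (chrXII:482045-482163), RDN5-5 (chrXII:485697-485815) and RDN5-6 (chrXII:489349-489469). They have no 35S gene beside them and are called isolated copies here.

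The 6 copies of the 5S gene have only 2 sequences as annotated, and these are shown because most of the isolated peaks have their summit on them. RDN5-6 is identical to RDN5-1, and RDN5-2 to RDN5-5 are identical to each other. Counted from the 5′ end of the gene, the difference is A118G, with the base of RDN5-1 first, and it is in capitals. The annotation of the second group ends earlier.
RDN5-1: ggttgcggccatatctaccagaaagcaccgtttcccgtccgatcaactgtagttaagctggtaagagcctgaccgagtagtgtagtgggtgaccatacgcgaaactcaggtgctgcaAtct
RDN5-3: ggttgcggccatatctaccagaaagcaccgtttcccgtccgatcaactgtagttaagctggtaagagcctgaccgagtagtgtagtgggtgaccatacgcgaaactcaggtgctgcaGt

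The isolated copies share little with the array beyond the gene. From the first base of the gene, RDN5-3, RDN5-4 and RDN5-5 matched RDN5-1 over 117 bases without a difference, and RDN5-6 over 123 bases. Upstream of the first base, each isolated copy matched RDN5-1 over 2 bases only. The 40 bases before the gene are given in lower case and its first 10 bases in capitals, to show where the shared sequence begins.
RDN5-1 with 40 bases upstream: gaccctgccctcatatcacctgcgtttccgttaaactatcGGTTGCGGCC
RDN5-3 with 40 bases upstream: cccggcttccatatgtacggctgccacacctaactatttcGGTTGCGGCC

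All 8 rRNA genes lay wholly under Zuo1 peaks, and every one of these peaks had a fold of at least 8.70. For comparison, 21.2% of the 6431 nuclear genes were overlapped by a peak by at least 1 bp, 5.71% lay wholly under peaks and 7.93% were overlapped by a peak of fold 3 or more. A peak summit lay inside 4 of the 8 genes, RDN37-1, RDN5-3, RDN5-4 and RDN5-5, beside 14.6% of nuclear genes. Nothing is read from these shares, since the genes were selected on the same peaks. Of the whole region, 73.9% of bases were under peaks, beside 8.17% of the nuclear genome outside it and 12.2% of chromosome XII outside it. The peaks number 9, of which 5 had a fold of 3 or more and hold the rRNA genes, and 4 were weaker and hold none.

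**Figure D1:**
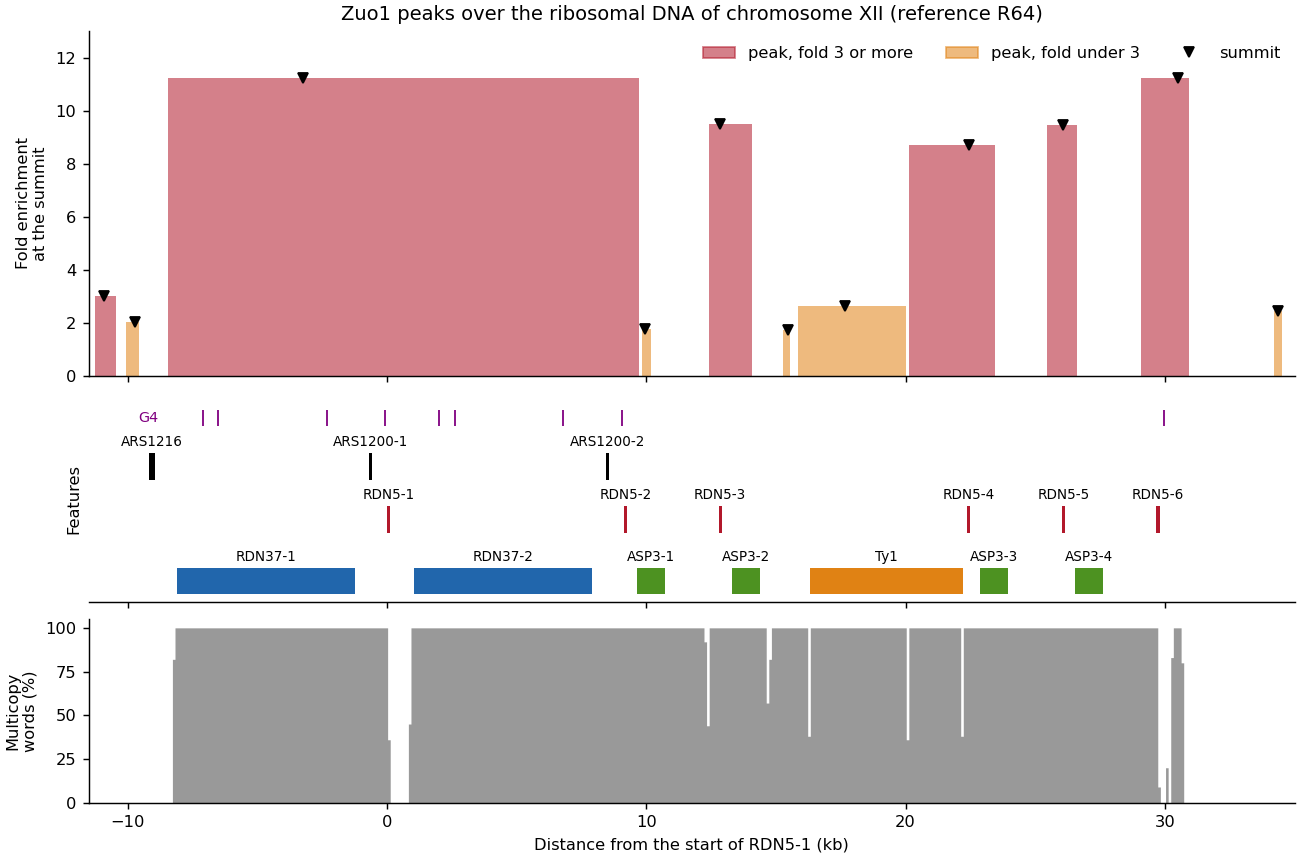
Zuo1 peaks over the rDNA region, drawn to scale in kb from the start of RDN5-1, with the fold enrichment at the summit as the height of each box, annotated features and G4 motifs in the middle, and the percent of 64-base words that occur more than once in the reference below (100-bp bins). The 5 high peaks (fold 8.70 to 11.2) cover the 35S and 5S genes, and between them lie the DNA around the ASP3 genes and part of the Ty1 element, with weaker peaks or none.

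The tandem array was covered by a single peak, chrXII:451233-469394. With 18162 bp it was the longest of the 1594 peaks, and the next longest, on chromosome XIII, had 4946 bp. Both 35S genes lay in it from end to end: ETS1, the 18S gene RDN18, ITS1, the 5.8S gene RDN58, ITS2, the 25S gene RDN25 and ETS2 were each covered to 100% in both units. NTS2 (1243 bp in each unit), the NTS1 between RDN5-1 and RDN37-2 (915 bp) and the origins ARS1200-1 and ARS1200-2 were covered to 100% as well. The coverage therefore did not separate the transcribed parts of the unit from its spacers. TAR1, a small gene encoded antisense to the 25S rRNA, lies within RDN25-1 and was covered with it. The summit was reported once for the whole peak, at position 456428, which is base 1305 of RDN18-1 counted from its 5′ end. The units are identical over 8375 bp, so a single read from one of them matches the other equally well, and the place of the summit does not tell the copies apart.

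At the left border, the peak began 185 bp before the first base that the units share and 342 bp before the 3′ end of RDN37-1. The border of the array is shown with the last 30 bases before the shared sequence in lower case and its first 30 bases in capitals.
left border of the array: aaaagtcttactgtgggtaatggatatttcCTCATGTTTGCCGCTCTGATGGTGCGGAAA
This position is chrXII:451388-451447 on the plus strand. Farther left, 1101 bp without a peak followed, which contain the origin ARS1216, with 0% of its bases covered. A small peak, chrXII:449628-450131, reaches over the edge of the region with a fold of 2.03 and 86 IP fragments. The first peak wholly outside, chrXII:448399-449225, had a fold of 3.02 and overlapped a tRNA gene. The first protein-coding gene on this side, RNH203, which encodes a subunit of RNase H2, ended 2918 bp before the array peak. Of the single-copy DNA between the edge of the region and the array, 22.4% was covered.

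At its right border, the array peak continued 463 bp past the end of RDN5-2 and into ASP3-1. The 5S gene there marks a change of sequence: to its left lies NTS2 of the second unit, and to its right the first of 4 near-identical repeats. Each repeat starts with a 5S copy and carries an ASP3 gene for cell-wall asparaginase II, which is made when nitrogen is scarce. The repeats that start with RDN5-2, RDN5-3, RDN5-4 and RDN5-5 are called A, B, C and D here. They are 3652 bp long from 5S start to 5S start, except B, which is split by the 5922-bp Ty1 element YLRCTy1-1, so that RDN5-3 and RDN5-4 are 9580 bp apart. Pairs of repeats were between 99.75% and 100% identical, and C and D did not differ over their 3652 bp.

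The isolated copies RDN5-3, RDN5-4 and RDN5-5 each had their own peak, and in each the summit was in the 5S gene. The peak of RDN5-3, chrXII:472082-473746, had a fold of 9.50 with 417 IP fragments (interval 378 to 459). Its summit was at base 62 of the gene. The peak of RDN5-5, chrXII:485137-486281, had a fold of 9.45 with 415 IP fragments (376 to 457) and its summit at base 54. The peak of RDN5-4, chrXII:479811-483131, had a fold of 8.70 with 381 IP fragments (344 to 421) and its summit at base 71. The 3 intervals overlap, but overlap is no test and the copies can share reads, so no order of these copies is read from them. In the list of all peaks these folds had ranks 37, 39 and 53. Inside each gene, 54 words of 64 bases, which is the read length, occur in all 6 copies, so such reads do not tell one copy from another.

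The peaks around these genes were unequal in width. To the left of the gene, the peak of RDN5-3 reached 383 bp, that of RDN5-5 560 bp and that of RDN5-4 2234 bp, the last into the Ty1 element. To the right they reached 1163 bp, 466 bp and 968 bp, each into the ASP3 gene that follows. The next peak to the right, chrXII:488762-490611, held RDN5-6 with 587 bp to its left and 1142 bp to its right. Its summit was not in the 5S gene but 832 bp from its start.

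**Figure D2:**
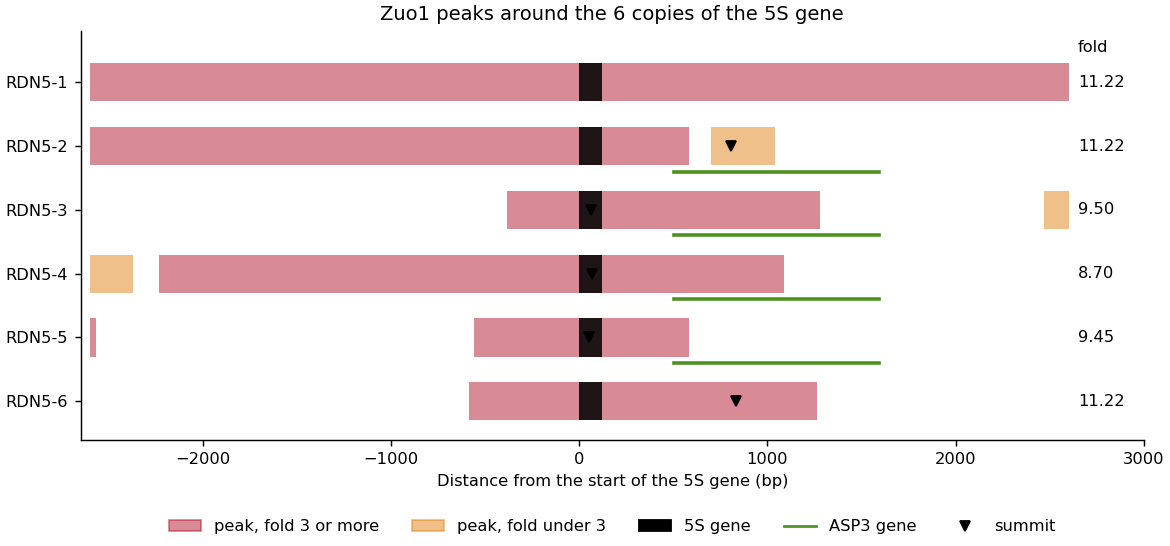
Peaks around the 6 copies of the 5S gene, aligned at the first base of each gene (horizontal axis in bp, plus strand, cut at 2600 bp on both sides), with the fold enrichment of the covering peak at the right. The summits of RDN5-3, RDN5-4 and RDN5-5 lie inside the gene at bases 62, 71 and 54, while that of RDN5-6 lies 832 bp from the start.

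Because the ASP3 repeats are nearly identical, their coverage could be compared by position, counted from the 5S start. Peaks covered 35.8% of repeat A, 59.0% of B without the Ty1 element, 45.1% of C and 32.1% of D. From the 5S start, the unbroken cover ran 582 bp in A, 1282 bp in B, 1087 bp in C and 585 bp in D. At the other end, before the next 5S gene, it was 383 bp, 605 bp, 560 bp and 587 bp. The 4 repeats were set side by side over 3652 bp without gaps, so B, with 3658 bp, may be shifted by a few bases. Of these positions, 965 (26.4%) were under peaks in every copy. They are the 582 bp at the start and the 383 bp at the end, on both sides of the 5S genes. A further 1499 positions (41.0%) were under no peak in any copy, in a run of 1187 bp that begins 1283 bp from the 5S start and in a run of 312 bp. Over the repeats, covered parts included and B taken in its parts beside Ty1, 96.5% to 100% of 64-base words occur more than once in the reference. In C and D the share is 100%, so in them repeated sequence without a peak was found beside repeated sequence with one. Repeats C and D, with the same sequence, differed in the reach of their peaks by 502 bp at the start.

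The ASP3 genes themselves were covered in part. The percent under peaks was 38.8% for ASP3-1, 71.4% for ASP3-2, 53.5% for ASP3-3 and 7.44% for ASP3-4. In ASP3-2, ASP3-3 and ASP3-4 the covered bases are those nearest the 5S gene, which is the 3′ end of the minus-strand ASP3 gene. ASP3-1 had in addition a separate small peak, chrXII:469511-469854, with a fold of 1.77 and 76 IP fragments. Repeat B also had a small peak of its own, chrXII:474934-475205, with a fold of 1.73 and 68 IP fragments. These were among the weakest of the list, with ranks 1514 and 1545 of 1594. The short reading frames of unknown function beside the 5S genes, such as YLR156W, YLR159W and YLR161W to the left, were covered to 100%.

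**Figure D3:**
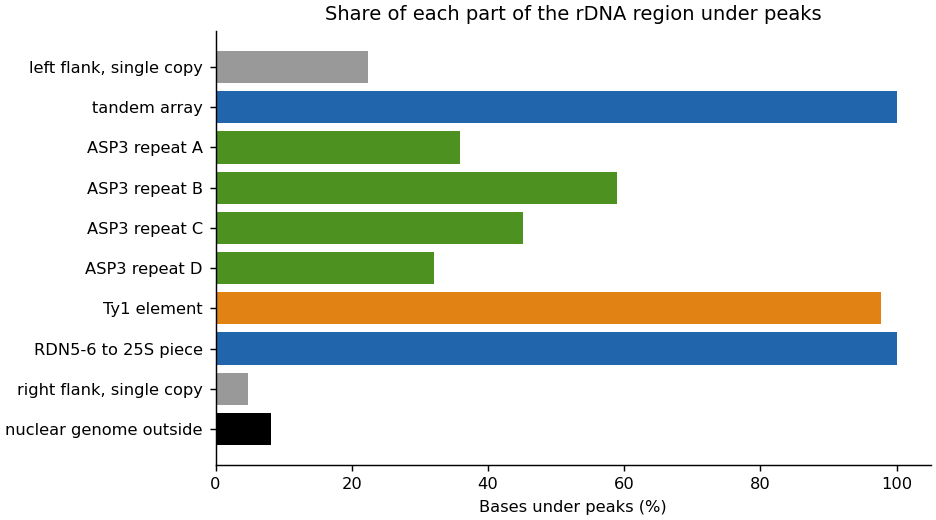
Percent of bases under peaks in each part of the rDNA region, from left to right on the chromosome, with the nuclear genome outside the region as the last bar. The array, the Ty1 element and the 25S piece were covered to 97.7% or more, the ASP3 repeats from 32.1% to 59.0%, and the single-copy flanks to 22.4% and 4.73%.

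The Ty1 element inserted in repeat B was covered to 97.7%, the highest share of the 50 full-length Ty elements of the reference, whose median was 68.1%. Ty1 is a retrotransposon that copies itself through RNA, and a 64-base word of this element occurs in the reference a median of 25 times. Its left part lay under the peak chrXII:475518-479673, with a fold of 2.62 and 112 IP fragments, and its right part under the peak of RDN5-4. Only 137 bp without a peak separated the 2. The wide left reach of the RDN5-4 peak therefore falls on Ty1 sequence, which the other isolated copies do not have beside them.

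Right of RDN5-6 the sequence changes again. After 283 bp of single-copy DNA with 62.2% GC comes a piece of the 25S gene, chrXII:489753-490542. It is 790 bp long and 98.99% identical, with 8 mismatches, to chrXII:460922-461711, the 3′ end of RDN25-2. The summit of the last peak was at base 428 of this piece and 711 bp past the end of RDN5-6. The peak ended 69 bp after the piece. The reading frames YLR162W and RRT15, annotated in this stretch, were covered to 100%. RDN5-6 is the one isolated copy with its summit outside the 5S gene, and the one with a piece of the 35S unit at its side.

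The right border of the covered rDNA was followed by 3285 bp without a peak. MAS1, the first protein-coding gene on this side, which encodes a subunit of the mitochondrial processing protease, began 1254 bp after the peak. The next peak, chrXII:493897-494206, had a fold of 2.44 and 98 IP fragments and lay in SHH4. Of the single-copy DNA between the 25S piece and the edge of the region, 4.73% was covered, all of it by the end of the last peak.

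The peaks over the array and over RDN5-6 with the 25S piece had the same fold enrichment, 11.2, and tied at rank 10 of 1594. Both had 522 IP fragments and a background of 45.6, and both had a −log10 q of 344. These are the highest IP and the highest background of all peaks. The number 522 is 2 times 261, the length of the shortest peak. A caller that keeps 1 read per position and strand, as MACS does by default, can stack no more than that many fragments of 261 bp. The background steps of the other peaks give a weight of 0.0874 for 1 control read, so 522 control reads make a background of 45.6. At both limits the fold is 11.2, whatever the true numbers of reads. The study does not state how duplicate reads were treated or which fragment length was used. Whether such a limit set these values was not tested. The fold of these peaks is therefore not taken as a measure of how strongly the array was enriched. With such a limit, the place of these summits, in RDN18-1 and in the 25S piece, may be 1 point of a stretch at the limit.

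The peaks of RDN5-3, RDN5-4 and RDN5-5 were below both limits, but their backgrounds were close to theirs. Their IP fragments were 79.9%, 73.0% and 79.5% of the limit, and their backgrounds, 43.0, 42.9 and 43.0, were 94.3%, 94.1% and 94.3% of it. With so little room left in the background, the folds of these peaks are likewise not taken as a measure of how strongly these copies were enriched. The median background of all peaks was 80.1% of the limit, and 18 of the 1585 peaks outside the region (1.14%) had a background as high as that of RDN5-4 or higher, so backgrounds of this height were not found at the 5S copies alone. How the aligner placed reads that match several copies is not given in the sources used here, and its part in the values of the isolated copies was not tested.

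**Figure D4:**
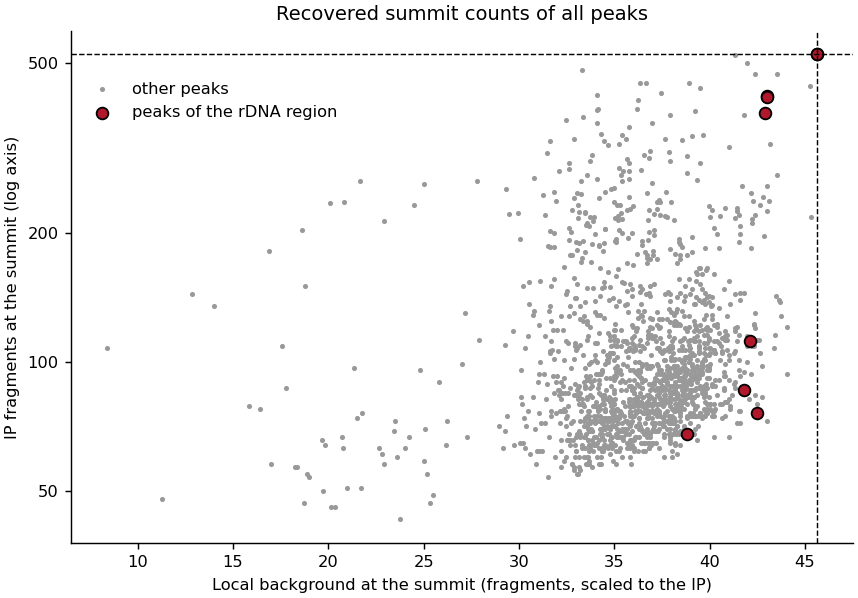
IP fragments (log axis) against the local background at the summit of each of the 1594 peaks, both recovered from the deposited fold and p-value, with dashed lines at the limits of 522 fragments and a background of 45.6. The peaks of the array and of RDN5-6 share the point where both lines cross, the peaks of RDN5-3 and RDN5-5 nearly share a point below it, and the 4 weak peaks of the region lie between 68 and 112 IP fragments.

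No peak outside the region came within 1% of the array in both measures. SCR1, the RNA of the signal recognition particle and a polymerase III transcript, reached 521 IP fragments, but over a background of 41.3, with a fold of 12.3. A background within 1% of the highest was found at 2 other peaks. One lay over the CUP1 repeats on chromosome VIII, tandem genes of a copper metallothionein, with 218 IP fragments and a fold of 4.73. The other, chrXII:5441-9862, lay near the left end of chromosome XII with 441 IP fragments and a fold of 9.55.

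Sequence repeated in the reference was under peaks more often than single-copy sequence, inside the rDNA region and outside it. In the region, 77.8% of positions whose 64-base word occurs more than once were under peaks, and 42.5% of single-copy positions. In the rest of the nuclear genome the shares were 47.0% and 6.0%. Single-copy positions of the region include most of the NTS1 right of RDN5-1, which is complete only there in the reference, and the stretch between RDN5-6 and the 25S piece. In the single-copy flanks outside the array and the 25S piece the shares were the 22.4% and 4.73% given above.

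The study asked whether Zuo1 binds at G-quadruplex (G4) motifs, so the region was searched for 4 runs of at least 3 G with loops of 1 to 25 bases of any kind, on both strands, with overlapping matches merged on a strand. The search found 9 motif regions, all under peaks and all on the minus strand, which is the strand of the 35S genes. For comparison, 73.9% of the bases of the region were under peaks, and the share of the genome's motifs under peaks is not given here. The single array peak, which covers the array wholly, holds 8 of them, the same sequences in both units. Nothing is therefore read from their cover or strand. Each unit holds 4, with 2 in RDN25, 1 in RDN18 and 1 in NTS2, and YLR162W holds the ninth. The distinct sequences are shown with the G runs in capitals, in the first unit and then YLR162W, at chrXII:452561-452609, chrXII:453174-453255, chrXII:457343-457378, chrXII:459597-459645 and chrXII:489625-489691.
RDN25-1 first motif: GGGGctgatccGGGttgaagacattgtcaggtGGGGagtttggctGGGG
RDN25-1 second motif: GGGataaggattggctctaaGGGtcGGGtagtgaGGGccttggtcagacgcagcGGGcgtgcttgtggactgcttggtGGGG
RDN18-1 motif: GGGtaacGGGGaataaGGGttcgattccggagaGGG
NTS2-1 motif: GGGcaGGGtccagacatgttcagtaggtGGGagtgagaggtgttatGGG
YLR162W motif: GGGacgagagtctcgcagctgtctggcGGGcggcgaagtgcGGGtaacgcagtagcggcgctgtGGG

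The NTS2 motif ends 30 bp before RDN5-1 and, in the second unit, 30 bp before RDN5-2. The isolated copies have another sequence there, and the peaks of RDN5-3, RDN5-4 and RDN5-5 hold 0 motifs. From their summits to the nearest motif were 3744, 7510 and 3875 bp. The summits of the array peak and of the last peak are at the limit of both counts, and their distance to a motif is not compared with these. Of all nuclear windows of 1000 bp, 4.94% hold a motif, and of the 199 nuclear peaks of fold 5 or more, 34.2% do. Peaks differ in length, and the array peak has 18162 bp, so these shares are not on the same footing. Of the 5 strong peaks of the rDNA, those of the array and of RDN5-6 hold motifs. With loops of at most 7 bases the search finds 0 motifs in the region. The RDN18 motif, left out by the stricter search, is the sequence of an rDNA oligonucleotide used in the study. The study reports that this oligonucleotide, folded as a G4, was bound by Zuo1 in vitro.

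Other genes of RNA polymerase III give a scale for the 5S copies. Of the 275 nuclear tRNA genes, 208 (75.6%) were overlapped by a peak, and 9.09% by a peak of fold 3 or more. The median fold of those 208 was 2.40 and the highest 7.09. That was below the 8.70 of RDN5-4, the lowest of the 5S copies with a summit inside the gene. The 5S copies were chosen with their folds known. Their backgrounds were near the limit, so no rank over the tRNA genes is read. RPR1, the RNA of RNase P, had a fold of 5.67 and 231 IP fragments. SNR52, a small nucleolar RNA, had a fold of 3.43 and 145 IP fragments. SNR6, which encodes the U6 RNA of the spliceosome, had no peak. SCR1 had a fold of 12.3 and 521 IP fragments, next to the limit of 522. No order of SCR1 against RDN5-3, RDN5-4 and RDN5-5 is read either. The peak that holds RDN5-6 was at the limit of the count, but its summit lay outside this gene. Its count is therefore not a value of RDN5-6, and this copy is not compared with SCR1. These comparisons carry no test, and tRNA genes, like 5S genes, are repeated in the genome.

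The genes for proteins that act on the rDNA were examined as 4 lists. Of all 51 genes, 11 (21.6%) were overlapped by a peak, beside 17.9% of nuclear protein-coding genes. Of the RNA polymerase I subunits, 4 of 14 were overlapped, RPA14 with a fold of 5.76, RPA190 with 2.29, RPC19 with 1.86 and RPA135 with 1.73. Of the polymerase I initiation and rDNA chromatin factors, 3 of 19 were overlapped. RRN5, a subunit of the upstream activating factor of the 35S promoter, had the highest fold of all lists, 8.85, with 378 IP fragments. TOF2, a nucleolar protein of rDNA silencing, had 3.44, and HMO1, a high-mobility-group protein on active rDNA, had 2.00. Of the polymerase III and 5S factors only MAF1, the repressor of polymerase III, was overlapped, 1 of 12, with a fold of 1.84. Of the proteins that bind or assemble the 5S RNA, 3 of 6 were overlapped, RPL5 with 2.86, RPL11B with 2.24 and RRS1 with 1.89. The share over the lists was close to that of all protein-coding genes, and was not tested.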

How the data were processed

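Single-end reads of 64 bp were mapped by the authors to sacCer3, and IP and input libraries were pooled for 1 run of MACS 2.0 (narrow peaks, q-value threshold 0.05). The aligner is given as bowtie in the study's methods and as bowtie2 in its reporting form. The command in the study's reporting form puts 1 input with the treatment and 1 IP with the control files. Here the IP was taken as the treatment. The deposited list has the narrow-peak layout under the header of another table and was read by position. It gives the authors' fold enrichment (ratio), the −log10 p-value, the −log10 q-value and a score, which was not used. The other deposited columns hold coordinates and summits.

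Peaks were intersected with R64 genes (1 bp of overlap). IP fragments and background were solved from the Poisson p-value and the fold, with 1 added to each count. All peaks were recovered within 0.001 of their −log10 p. Of 300 peaks simulated with the same formula, 300 gave back their IP fragments, which checks the arithmetic only. The weight of a control read was fitted on peaks outside the region, of which 55.0% of backgrounds fell within 0.05 reads of a whole number. Repeats were counted as 64-base words and aligned with blastn (BLAST+ 2.17.0, E-value 1e-10). Scripts ran in Python 3.11.15 with SciPy 1.17.1, NumPy 2.4.6 and, for plots, matplotlib 3.10.9.

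The rRNA genes, gene lists and measures were chosen with earlier results of these data known. Genes named are the 8 rRNA genes, their annotated parts, genes under the region's peaks, the first peak and protein-coding gene on each side, list genes under a peak, and polymerase III genes for comparison. The peaks at CUP1 and the left end of chromosome XII were picked after their counts were seen.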

Additional observations from a re-analysis of the deposited data

How the results depend on the processing

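No paired analysis was possible because the peak list, the only data used here, was called once on the pooled libraries and holds no value for a replicate. For the same reason no library was left out. All 8 rRNA genes stayed under peaks with a minimum overlap of 50% of the gene, with peaks of fold 3 or more, with a −log10 q of 3 or more, and with peaks shortened by 100 bp at both ends. A summit inside the gene was found for 4. With peaks of fold 3 or more, the region had 5 peaks in place of 9, 62.2% of its bases under peaks in place of 73.9%, 65.2% of its multicopy sequence under peaks in place of 77.8%, and 3 factor genes under peaks in place of 11. Widening the region by 5 kb on both sides gave 15 peaks and 66.1% of bases. Shortened peaks covered 69.9%, and peaks merged within 300 bp covered 74.5%. Windows of 50 bp were moved base by base from the start of each isolated 5S gene. In RDN5-3, RDN5-4 and RDN5-5, 82 consecutive window starts were at least 90% identical to RDN5-1, and 86 in RDN5-6. With windows of 100 bp these numbers were 37 and 41. They count window starts and are not lengths of shared sequence, which matched exactly over 117 and 123 bases. G4 motifs with loops of 1 to 7 bases numbered 0 in place of 9. Without the added count, 0.878% of the peaks were recovered in place of 100%. No order of the isolated 5S copies is read from their counts. The array and RDN5-6 peaks lie at the inferred limits of 522 fragments and of the control reads. Their heights are therefore not read as a measure of enrichment.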
